A study of Arabidopsis thaliana with 6 samples.

Results

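The 9 genes described here encode the phytochromes of *Arabidopsis thaliana*, carriers of phytochrome A and regulators of these carriers. The phytochrome genes are PHYA, PHYB, PHYC, PHYD and PHYE. FHY1 and FHL encode the proteins that carry phytochrome A into the nucleus. FHY3 and FAR1 encode transcription factors that bind the promoters of FHY1 and FHL in seedlings. The 9 genes were taken by locus name and function, not by their values, and are 9 of 33602 genes in the count table. Earlier results of these data were known when they were chosen. All 9 passed the filter on low counts that left 16924 genes for the test. The libraries were made from whole wild-type Col-0 seeds, harvested as a single bulk from several plants. All seeds were imbibed in darkness for 2 h, given a far-red pulse of 20 min with a fluence rate of 42 µmol m-2 s-1, and then kept cold and dark for stratification (5°C, 3 days). A second pulse of 20 min followed, either far-red (FRp) like the first or red (Rp) with a fluence rate of 0.05 µmol m-2 s-1. By calculation the red pulse leaves a fraction of 0.87 of phytochrome in its active form, Pfr, and the far-red pulse 0.03. The seeds were collected 12 h later, as 3 biological replicates per pulse. The comparison asks how the mRNAs of the light sensors themselves differed after pulses that set Pfr high or low. The pulses also differed in fluence rate, which cannot be told apart from the Pfr level here. The authors report that the Rp induced germination and the FRp did not. Light and progress toward germination therefore cannot be told apart in this contrast.

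Phytochromes are dimeric photoreceptors that bind a linear tetrapyrrole and switch between an inactive form that absorbs red light, Pr, and an active form that absorbs far-red light, Pfr. In imbibed seeds phyB is the main sensor of the red/far-red reversible control of germination, whereas phyA, which accumulates during imbibition in the dark, responds to very brief light. Active phytochromes act in the nucleus. phyA has no efficient import signal of its own and is carried in by FHY1 and its homologue FHL, whose promoters are bound in seedlings by FHY3 and FAR1, a pair of transcription factors derived from transposases.

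The known binding site of FHY3 and FAR1, called FBS (CACGCGC), and the G-box (CACGTG), bound by bHLH and bZIP factors such as the PIFs and HY5, were searched on both strands in the 1000 nt upstream of each TAIR10 gene start. These letter strings do not overlap in the windows printed here. An FBS was found upstream of 3 of the 9 genes, FHY1, FHL and PHYB, and upstream of 2.86% of all 32834 regions of that length. FHY1 and FHL are known to be bound by FHY3 and FAR1, so matches there were to be looked for beforehand. The count of 3 is therefore no measure of enrichment. A G-box was found upstream of 5 of the 9, PHYB, PHYD, FHY1, FHL and FAR1, and upstream of 15.1% of all regions. The 3 windows with an FBS are shown because they stand before both import factors and 1 receptor gene. Capitals mark the FBS and the G-box, and the sequences are from TAIR10.1 on the strand of the gene. None of the windows overlaps a RefSeq exon of its own gene, and exons of neighbouring genes were not checked.
FHL, chr5:437220-437309, plus strand: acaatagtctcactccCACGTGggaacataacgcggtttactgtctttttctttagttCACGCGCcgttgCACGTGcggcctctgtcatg
FHY1, chr2:15802884-15802973, minus strand: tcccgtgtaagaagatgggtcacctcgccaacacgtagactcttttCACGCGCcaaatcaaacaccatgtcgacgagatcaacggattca
PHYB, chr2:8139571-8139660, plus strand: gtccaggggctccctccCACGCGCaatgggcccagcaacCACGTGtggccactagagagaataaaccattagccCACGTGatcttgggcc
The FBS of FHL begins 182 nt upstream of its TAIR10 start, between G-boxes at 224 and 170 nt. The FBS of FHY1 begins 134 nt upstream, and its only G-box lies at 647 nt, outside the window. The FBS of PHYB begins 293 nt upstream, before G-boxes at 271 and 236 nt. No match for either string was found upstream of PHYA, PHYC, PHYE or FHY3, which says only that these letters are not in those windows.

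The libraries held between 24234421 and 32387080 reads counted to genes. Seed storage mRNAs took a larger part of the FRp libraries: the summed level of 8 seed identity markers (cruciferins, oleosins, SESA1, EM1 and EM6) was 115600 to 134400 CPM (counts per 1000000 reads) after the FRp and 7062 to 10950 CPM after the Rp, and all 8 were called lower after the Rp. The 3 micropylar endosperm markers were split, with MAN7 and MAN6 higher and EPR1 lower, and 3 of 4 green tissue markers were tested and higher. Of these, LHCB1.2 rested on 7, 24 and 14 reads after the FRp. The green marker not tested, LHCB1.5, had a mean of 0.919 CPM after the Rp against 1.81 CPM after the FRp, with overlapping libraries. In whole seeds, fewer cells of a type and less RNA per cell cannot be told apart, and the part of these marker differences in the values below was not tested. TMM scaling, which assumes that most genes are unchanged, put the median of log2 fold changes over the tested genes at 0.02. Scaling to library totals alone put it at 0.45 and moved the 9 genes by a median of 0.43. Levels are given as TMM-scaled CPM unless stated otherwise, and calls needed a fold change over 1.5 and an adjusted p under 0.05 (edgeR quasi-likelihood test, Benjamini-Hochberg over all genes tested). Reads were concentrated toward the 3′ ends of transcripts, and the library Rp replicate 3 stood apart in this. Over 1659 genes the median ratio of reads on the first to reads on the last intron was 0.490 in Rp replicate 3 and 0.146 to 0.217 in the other 5 libraries. The tests of the 9 genes and the main shares and ratios were therefore also computed without Rp replicate 3.

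After the Rp, 5 of the 9 mRNAs were called lower and 0 higher: PHYA, PHYB, PHYD, PHYE and FHL. Over all tested genes, 55.6% were called, 26.8% lower and 28.8% higher. For 7 of the 9, the Rp and FRp libraries did not overlap, against 78.3% of all tested genes. All FRp libraries were above all Rp libraries for 6 of the 9, against 38.5% of all genes. The median log2 fold change of the 9 was -1.22, and 8 of them had an adjusted p under 0.05 whatever the fold, as did 75.2% of all genes. Without Rp replicate 3 the calls were again 5 lower and 0 higher. The plot of levels by library shows the range from PHYA to FHL.

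**Figure D1:**
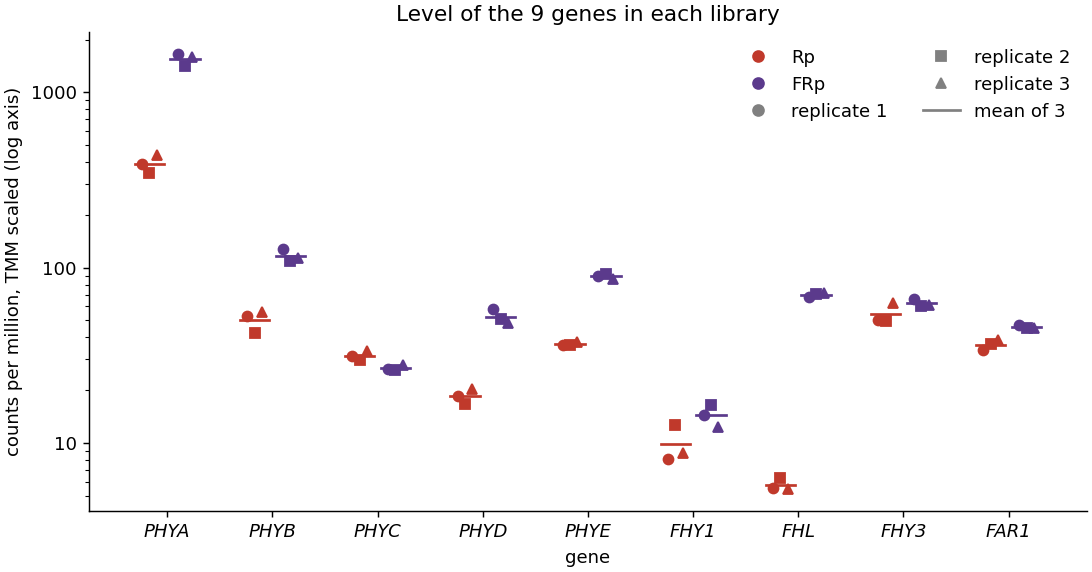
Level of each of the 9 genes in the 6 libraries, in TMM-scaled CPM on a log axis; points are libraries and lines are means of 3. The FRp points lie above all Rp points for PHYA, PHYB, PHYD, PHYE, FHL and FAR1, below them for PHYC, and overlap them for FHY1 and FHY3.

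PHYA (AT1G09570, chr1:3095256-3100357, minus strand) encodes the light-labile phytochrome, the sensor of very low fluences and of continuous far-red light. Its level was 389, 347 and 438 CPM in the Rp libraries and 1654, 1404 and 1592 CPM in the FRp libraries. Every FRp library was at least 3 times as high as every Rp library. The log2 fold change was -1.99 (SE 0.13, adjusted p = 4.82e-08 by edgeR), which is 3.96-fold lower after the Rp, and -2.08 without Rp replicate 3. Among the 16924 genes PHYA was the 717th from the most lowered. By RPKM, the CPM divided by the exon length in kilobases, it was the 304th most abundant mRNA after the FRp and the 1057th after the Rp.

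PHYB, PHYD and PHYE encode light-stable phytochromes of one subfamily, and in seeds phyD and phyE can add to the response to red light that phyB leads. PHYB (AT2G18790, chr2:8139881-8144430, plus strand) was at 52.8, 42.1 and 56.0 CPM after the Rp and at 128, 109 and 113 CPM after the FRp, a log2 fold change of -1.22 (SE 0.12, adjusted p = 1.19e-06). PHYD (AT4G16250, chr4:9195602-9199486, minus strand) was at 18.5, 16.6 and 20.3 CPM after the Rp and at 58.1, 51.1 and 48.2 CPM after the FRp, a log2 fold change of -1.5 (SE 0.11, adjusted p = 8.91e-08). PHYE (AT4G18130, chr4:10042137-10046082, minus strand) was at 36.1, 36.1 and 37.7 CPM after the Rp and at 89.1, 91.4 and 86.4 CPM after the FRp, a log2 fold change of -1.28 (SE 0.09, adjusted p = 5.27e-08). The libraries of the pulses did not overlap for any of these genes, and all were called lower, by 2.32-fold for PHYB, 2.84-fold for PHYD and 2.43-fold for PHYE. Without Rp replicate 3 the log2 fold changes were -1.30, -1.58 and -1.30 in that order. The coding sequences of PHYB and PHYD are identical at 80.4% of aligned bases, the highest of 6 pairs compared among the 9 genes, but the pair shares 0 words of 50 nt. In RefSeq, though not in the coordinates of the count table, PHYE overlaps AT4G18140 on the same strand by 60 nt, and reads there could belong to either gene.

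PHYC (AT5G35840, chr5:14007826-14011764, plus strand), whose product is stable and acts in dimers with phyB and phyD, was the exception among the receptors. Its level was 31.3, 29.7 and 33.3 CPM after the Rp and 26.5, 25.9 and 27.6 CPM after the FRp. The Rp libraries were all above the FRp libraries, as they were for 39.9% of all genes. The log2 fold change was 0.24 (SE 0.09, adjusted p = 0.0313), under the fold threshold, and the adjusted p was 0.0557 without Rp replicate 3. With library totals in place of TMM, PHYC was called higher, with a log2 fold change of 0.67, as were 44.5% of all tested genes.

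Per kilobase of exon, PHYA made up most of the phytochrome mRNA in either light condition, and more of it after the FRp. The summed level of the 5 genes was 138 ± 14.8 RPKM after the Rp against 481 ± 36.5 RPKM after the FRp (mean ± SD, n = 3). PHYA held 73.4%, 73.2% and 74.5% of that sum in the Rp libraries and 84.3%, 83.2% and 85.0% in the FRp libraries. These ranges do not overlap, and the Rp mean without replicate 3 was 73.3%. PHYC held 6.14% ± 0.307 after the Rp against 1.5% ± 0.0976 after the FRp, PHYB 9.06% ± 0.525 and 6.09% ± 0.250, PHYE 7.29% ± 0.636 and 5.10% ± 0.508, and PHYD 3.82% ± 0.0346 and 3.13% ± 0.269. The share of each of the 4 stable phytochromes in the sum of 5 was higher in every Rp library than in every FRp library, although the level of 3 of them was lower. Within the sum of PHYB to PHYE, only the share of PHYC was higher after the Rp, at 23.3% ± 0.682 against 9.51% ± 0.641. There PHYB held 34.5% ± 2.36 after the Rp and 38.5% ± 1.51 after the FRp, PHYD 14.5% ± 0.261 and 19.8% ± 0.951, and PHYE 27.7% ± 1.84 and 32.2% ± 1.71, without overlap of the libraries. The RPKM ratio of PHYA to PHYB was 8.15 ± 0.461 after the Rp against 13.9 ± 0.70 after the FRp, and that of PHYB to PHYD 2.37 ± 0.143 and 1.95 ± 0.0956. With 3 against 3 libraries an exact permutation test cannot go below p = 0.10, so these shares and ratios were not tested. RPKM sets reads over the whole exon length, and the reads of long transcripts lay near the 3′ end: for PHYA, 1.52 to 14.8 reads spanned the first intron per 100 on the last, with the highest value in Rp replicate 3. The effect of this on comparisons between genes of unlike length was not tested.

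**Figure D2:**
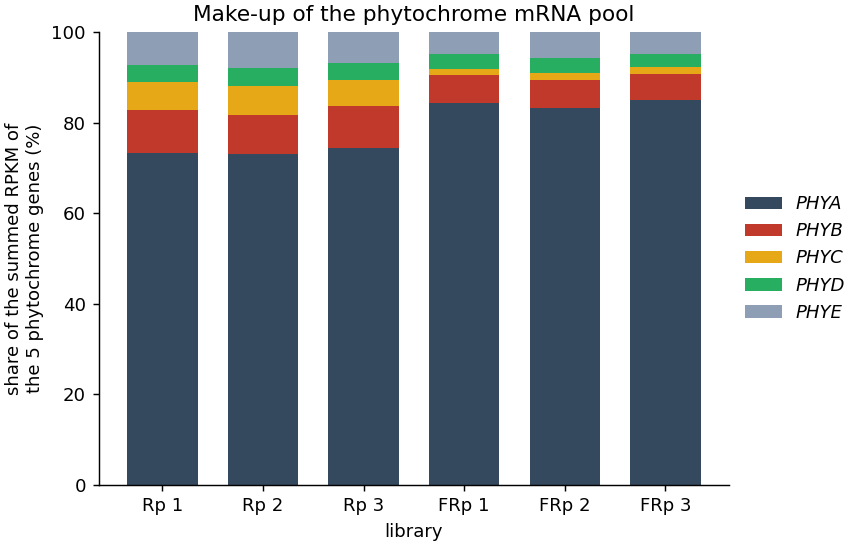
Share of each phytochrome gene in the summed RPKM of the 5, in percent, for each library. PHYA takes 73.2% to 74.5% of the bar in the Rp libraries and 83.2% to 85.0% in the FRp libraries, and the PHYC segment is 6.14% on average after the Rp against 1.5% after the FRp.

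FHL and FHY1 carry phyA into the nucleus by binding it at their C termini, while signals at their N termini move the complex. FHL (AT5G02200, chr5:437460-438894, plus strand) had the largest fold change of the 9 genes. It was at 5.54, 6.30 and 5.45 CPM after the Rp and at 67.8, 70.9 and 71.1 CPM after the FRp. Replicates differed little and the pulses did not overlap. The log2 fold change was -3.60 (SE 0.10, adjusted p = 2.63e-10), 12.2-fold lower after the Rp, and it was -3.57 without Rp replicate 3. FHL was the 71st from the most lowered of 16924 genes.

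FHY1 (AT2G37678, chr2:15801465-15802793, minus strand) was at 8.11, 12.7 and 8.73 CPM after the Rp and at 14.4, 16.5 and 12.3 CPM after the FRp. Rp replicate 2 was above FRp replicate 3, so the groups overlapped. The log2 fold change was -0.55 (SE 0.17, adjusted p = 0.0118), a 1.47-fold lower level that missed the fold threshold. FHY1 was called lower without Rp replicate 2 (log2 fold change -0.77, adjusted p = 0.000763) and without FRp replicate 3 (-0.66, adjusted p = 0.00976), and with library totals its log2 fold change was -0.13. The import factors thus changed places. The RPKM ratio of FHL to FHY1 was 0.470, 0.342 and 0.430 in the Rp libraries and 3.25, 2.96 and 3.99 in the FRp libraries. FHY1 was above FHL in every Rp library and below it in every FRp library, and the mean ratio without Rp replicate 3 was 0.406. The exon length used for FHL, 1349 nt, counts its upstream intron of 641 nt, which was spliced out of some of the mRNA (below). The effect of this on RPKM values of FHL was not tested. The coding sequences of FHL and FHY1 are identical at 61.8% of aligned bases and share 0 words of 50 nt.

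FHY3 and FAR1 activate FHY1 and FHL in seedlings. FHY3 (AT3G22170, chr3:7822018-7826085, minus strand) was at 50.2, 49.6 and 62.9 CPM after the Rp and at 66.5, 60.1 and 61.2 CPM after the FRp. Rp replicate 3 was above 2 of the FRp libraries. The log2 fold change was -0.21 (SE 0.11, adjusted p = 0.103) and FHY3 was not called, nor was it without Rp replicate 3 (-0.33, adjusted p = 0.00330). FAR1 (AT4G15090, chr4:8614067-8618145, plus strand) was at 33.7, 36.7 and 38.5 CPM after the Rp and at 47.1, 45.0 and 44.9 CPM after the FRp. The pulses did not overlap, and the log2 fold change of -0.33 (SE 0.09, adjusted p = 0.00503) was under the fold threshold. With library totals both values turned positive, to 0.23 for FHY3 and 0.10 for FAR1, and neither gene was called in either direction. The RPKM ratio of FHY3 to FAR1 was 1.43 ± 0.135 after the Rp against 1.31 ± 0.0387 after the FRp, with overlapping libraries.

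**Figure D3:**
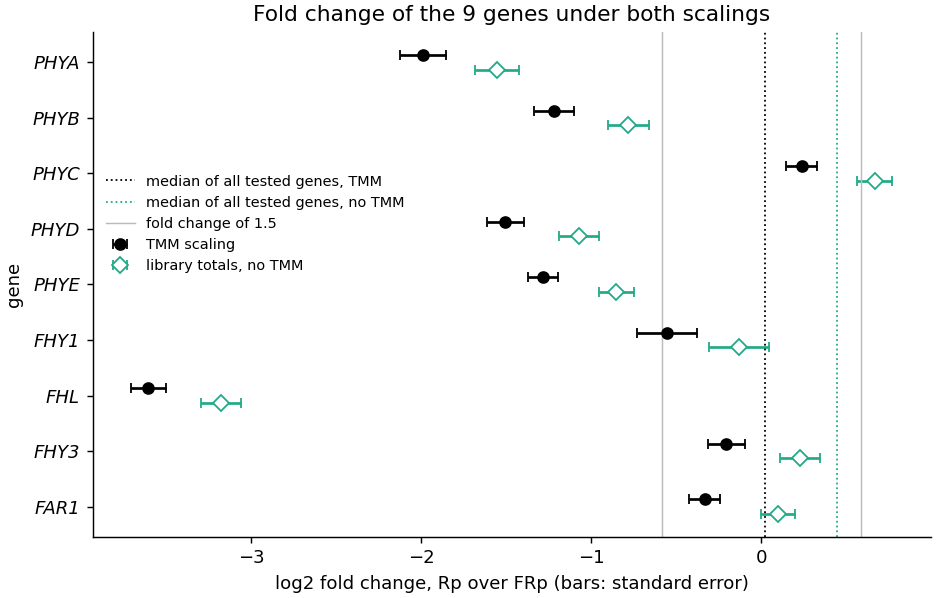
Log2 fold change of each gene, Rp over FRp, with its standard error, under TMM scaling (filled circles) and library totals (open diamonds); dotted lines mark the median of all tested genes under each scaling, 0.02 and 0.45, and grey lines a fold change of 1.5. PHYA, PHYB, PHYD, PHYE and FHL lie below the lower grey line under both, while FHY3 and FAR1 lie on either side of 0.

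The order of the 9 mRNAs per kilobase differed between the pulses. After the Rp it ran from PHYA (102 RPKM) over FHY3 (16.9) to PHYB (12.6), FAR1 (11.8), FHY1 (10.6) and PHYE (10.0), then PHYC (8.48), PHYD (5.29) and FHL (4.27). Neighbours from PHYB to PHYE overlapped in their libraries, and the other neighbours did not. After the FRp the order was PHYA (405 RPKM), FHL (51.9), PHYB (29.3), PHYE (24.4), FHY3 (19.5), FHY1 (15.5), PHYD (15), FAR1 (14.8) and PHYC (7.2), where FHY1, PHYD and FAR1 overlapped with their neighbours in that trio. FHL was the lowest of the 9 after the Rp and second after the FRp, and PHYC was the lowest after the FRp.

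Genes with the pattern most like that of a member were those with the smallest root mean square difference of mean-centred log2 CPM over the 6 libraries, among 14208 tested genes with a mean of at least 5 CPM. For FHL they were GA20OX3, a gibberellin 20-oxidase (difference 0.06, log2 fold change -3.53), ATS1, annotated as peroxygenase 1 (0.08, -3.59), and AT5G53260, annotated as a seed maturation protein (0.09, -3.54). For PHYA they were RAN1, a copper transporter (0.08, -2.0), E1 ALPHA, a subunit of pyruvate dehydrogenase (0.08, -1.89), and the CCT motif gene AT4G27900 (0.08, -1.94). For FHY1 they were AT4G15630 (0.09, -0.66), UBC18, a ubiquitin-conjugating enzyme (0.09, -0.56), and AT1G02300 (0.10, -0.53). The likeness rests on 6 libraries that share 1 contrast, and many genes with a like fold change would score nearly as well.

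The other genes of the pathway moved in both directions. Over all tested genes, 26.8% were called lower and 28.8% higher, the shares to hold beside the counts of each list below. Enzymes of chromophore synthesis were represented by 3 of 5 genes tested. HO2, a heme oxygenase, was at 19.5, 18.9 and 21.9 CPM after the Rp and at 6.72, 4.47 and 5.18 CPM after the FRp and was called higher (log2 fold change 1.89, SE 0.15, adjusted p = 2.17e-07), while HY1, the main heme oxygenase (0.17), and HY2, the phytochromobilin synthase (0.22), were not called. The list's median was 0.22. With library totals HY1 (0.60) and HY2 (0.65) were called higher too.

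Of 11 genes for proteins that bind or modify phytochromes, 6 were tested, with 2 called higher, 1 lower and a median log2 fold change of 0.32. HMR, which acts in phytochrome signalling and in chloroplast transcription, was at 154, 147 and 173 CPM after the Rp and at 68.8, 68.0 and 71.6 CPM after the FRp (log2 fold change 1.19, SE 0.10, adjusted p = 2.57e-07). FYPP1, a phosphatase subunit that acts on phytochromes, was also higher (0.67, adjusted p = 9.82e-05), and PAPP5, a phosphatase that acts on Pfr, was lower (-0.65, adjusted p = 0.000175, and not called with library totals). For these 3 genes the libraries of the pulses did not overlap.

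Of 7 genes downstream of phyA, 6 were tested, with 3 called lower, 1 higher and a median of -0.58. SCL21, a GRAS protein of phyA signalling, was at 37.5, 36.4 and 29 CPM after the Rp and at 86.0, 82.2 and 84.1 CPM after the FRp (log2 fold change -1.29, SE 0.11, adjusted p = 3.29e-07). HFR1, a bHLH factor of far-red signalling, was lower (-0.98, adjusted p = 0.00411), as was LAF3 (-0.67, adjusted p = 7.63e-05), and FIN219/JAR1, the enzyme that conjugates jasmonate to isoleucine, was higher (0.62, adjusted p = 0.000555). HFR1 and LAF3 were not called with library totals.

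Among 7 genes known as targets of FHY3 or FAR1 in seedlings or leaves, 3 were called lower and 1 higher. The shares over all tested genes were 26.8% and 28.8%, and the median of the list was -0.47. MIPS2, an enzyme of inositol synthesis, was at 11.7, 11.2 and 8.49 CPM after the Rp and at 47.5, 49.5 and 38.5 CPM after the FRp (log2 fold change -2.11, SE 0.14, adjusted p = 3.95e-08). Its homologue MIPS1 (-1.12, adjusted p = 9.63e-06) and ABI5, a bZIP factor of abscisic acid response (-1.37, adjusted p = 8.51e-08), were also lower. HEMB1, an enzyme of tetrapyrrole synthesis, was higher (0.96, adjusted p = 2.90e-06). The called genes of this list did not share a direction, and FHY3 and FAR1 themselves were not called. The activity of FHY3 and FAR1 was not measured, and the direction of their effect on each target in seeds was not tested.

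The relatives of FHY3 and FAR1 included 16 tested genes annotated as FAR1-related sequences or proteins. Of these 6 were called lower, 1 was called higher and the median was -0.29. AT3G07500 was at 6.83, 8.15 and 6.43 CPM after the Rp and at 38.1, 33.1 and 37.0 CPM after the FRp (log2 fold change -2.34, SE 0.12, adjusted p = 5.20e-09). FRS6 (-1.16, adjusted p = 5.32e-06) and FRS3 (-0.71, adjusted p = 2.30e-05) were lower too, and AT2G43280 was higher (0.63, adjusted p = 0.00197). With library totals 2 of the family were called lower and 1 higher, and FRS3 lost its call. Over the 5 lists, 13 of 38 tested genes were called lower and 6 higher, against 26.8% and 28.8% of all tested genes. The counts were the same without Rp replicate 3, but with library totals they turned to 6 lower and 12 higher, against 15.2% and 44.5% of all tested genes.

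**Figure D4:**
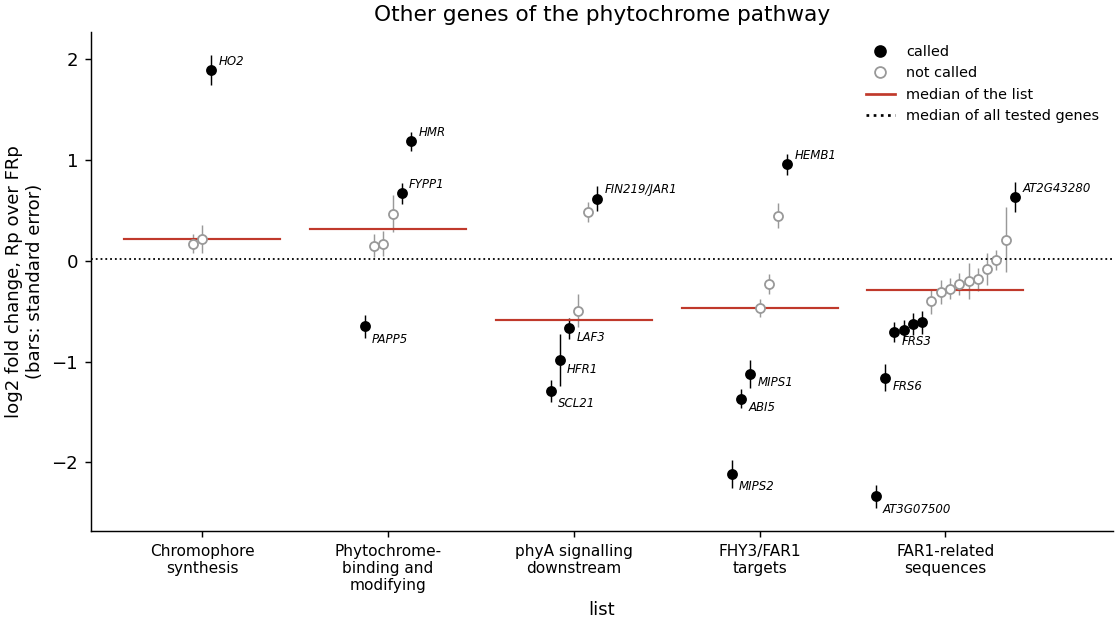
Log2 fold change, Rp over FRp, of the tested genes of 5 other lists of the phytochrome pathway, with standard errors; filled points were called, names mark the called genes with the largest changes, red lines are list medians and the dotted line is the median of all tested genes (0.02). Called genes lie on both sides of 0 in 4 of the 5 lists, from AT3G07500 at -2.34 to HO2 at 1.89.

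Splicing of the 9 genes was read from reads that span exon junctions or exon–intron boundaries, as the percentage of intron retention (PIR), the reads over both boundaries of an intron divided by these reads plus 2 times the spliced reads. The table held 61 lines for these genes, of which 21 had enough reads to be tested, and none for PHYC or PHYD. Of these 21, 0 passed the thresholds of 0.15 for the adjusted p and 0.5 percentage points for the difference (edgeR quasi-likelihood test over 28466 events), against 2.44% of all tested events, and 4 had an unadjusted p under 0.05, against 12.7% of all. The alternatives called 1 (limma) and 4 (Fisher exact test on pooled reads) of the 21, against 441 and 5061 of the 28466 events. The Fisher test on pooled reads holds no replicate error. The 20 introns not annotated as alternative were mostly removed: their median PIR was 1.25% after the Rp against 1.34% after the FRp, and 16 of them were under 5% in both.

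The event of smallest p was the upstream intron of FHL (641 nt, chr5:437564-438204). RefSeq annotates a transcript that splices it, with a start codon at 437520, and a transcript that keeps it, with a start codon at 438221 downstream of the intron, so that the spliced form codes for 20 more amino acids at the N terminus. The donor, the acceptor and both coding starts are shown because they define these forms. Capitals mark the intron's first or last bases or the start codon.
FHL donor, chr5:437554-437583, plus strand: tggatcatagGTttttcttttcaacaaaac
FHL acceptor, chr5:438185-438214, plus strand: ttaaccatatatgatttcAGcgatatcaac
FHL start of the spliced form, chr5:437520-437549, plus strand: ATGgatgatgcagataagagttgtagccca
FHL start of the retained form, chr5:438221-438250, plus strand: ATGatagttgctgtggaatctctagacaca
Reads that spliced this intron numbered 2, 0 and 0 in the Rp libraries and 24, 46 and 54 in the FRp libraries. Boundary reads that kept it numbered 5, 3 and 4 at the donor and 10 in each library at the acceptor after the Rp, and 19, 21 and 31 at the donor and 78, 75 and 57 at the acceptor after the FRp. The FRp libraries therefore held spliced and boundary reads in number, while spliced reads were seen in 1 of 3 Rp libraries. Acceptor reads outnumbered donor reads in every library, in total 30 to 12 after the Rp and 210 to 71 after the FRp. The PIR sums both sides and so rests mostly on the acceptor. Whether all acceptor reads came from mRNAs that keep the whole intron was not tested. PIR was 93.0% ± 12.2 after the Rp against 54.3% ± 11.4 after the FRp (SD, n = 3), a difference of 38.7 percentage points without overlap of the libraries. Its unadjusted p was 0.00466 and its adjusted p 0.157 by edgeR, above the threshold. The edgeR fit set the variance of every event to the trend over all events. These p values therefore do not measure the spread of this event's own libraries. Over 14 alternatives the adjusted p ran from 0.00174 to 0.434, and it was below 0.15 in 2. Alternatives that changed only a call threshold kept the edgeR value of 0.157 and did not test it anew. Without Rp replicate 3 the adjusted p was also 0.434. Of the annotated IR events of all genes, 6.42% were called.

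The downstream intron of FHL gave a scale for these reads within the same mRNA. It was spliced in 28, 33 and 14 reads after the Rp and in 213, 293 and 253 reads after the FRp. Pooled over libraries, spliced reads of the upstream intron were 2 and those of the downstream intron 75 after the Rp, a ratio of 2.67 per 100 (95% interval 0.317 to 9.97, exact and conditional on the sum of both counts). After the FRp they were 124 and 759, a ratio of 16.3 per 100 (13.4 to 19.8). The upstream intron lies nearer the 5′ end, and the part of the 3′ concentration of reads in these ratios was not tested. The intervals cover counting error only and treat the libraries of a pulse as 1. The Rp values rest on few reads, since the FHL mRNA itself was 12.2-fold lower.

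**Figure D5:**
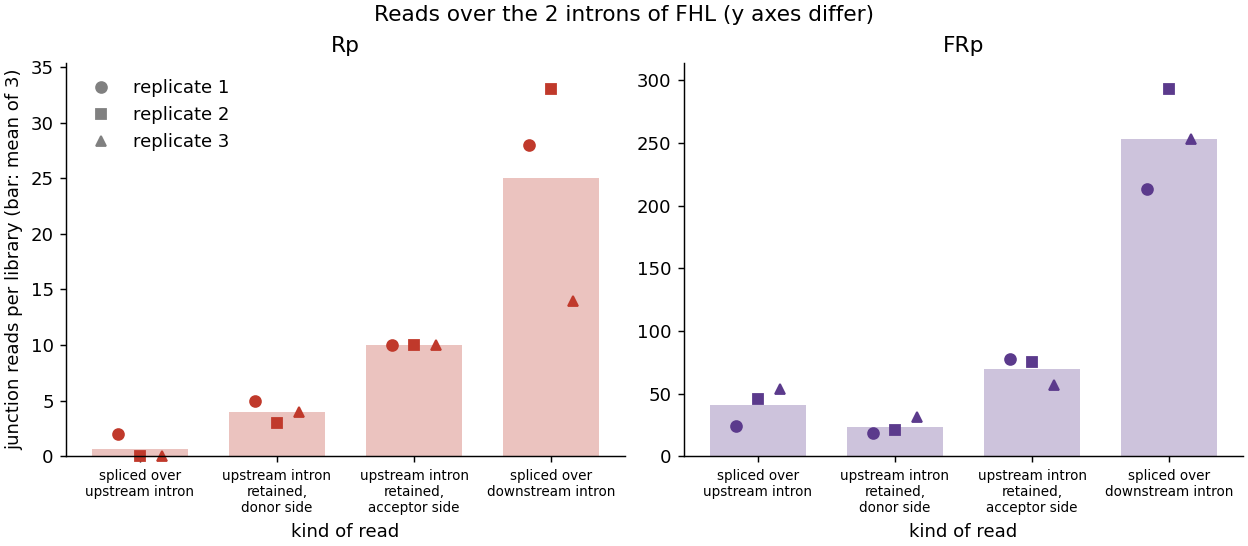
Junction reads of FHL per library after the Rp (left) and the FRp (right): reads spliced over the upstream intron, reads that keep it at its donor or acceptor side, and reads spliced over the downstream intron; points are libraries, bars are means of 3, and the y axes differ between panels. Spliced upstream reads are 2, 0 and 0 after the Rp and 24, 46 and 54 after the FRp.

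The downstream intron itself had a PIR of 11.4% ± 7.71 after the Rp against 5.20% ± 1.70 after the FRp, with overlapping libraries (adjusted p = 0.336 by edgeR). For the other genes, the event of smallest p in each was an intron not annotated as alternative, and none was called. The first intron of FHY1 had a PIR of 4.25% ± 1.53 after the Rp against 15.1% ± 5.54 after the FRp (adjusted p = 0.425 by edgeR), without overlap. Reads over its acceptor boundary numbered 2, 0 and 3 after the Rp and 6, 8 and 5 after the FRp, while those over its donor boundary, 2, 1 and 0 and then 0, 3 and 1, overlapped. Reads spliced over it numbered 32, 17 and 36 after the Rp and 17, 21 and 28 after the FRp, so the PIR rests on few reads. An intron of PHYB (chr2:8142243-8142330) had a PIR of 3.57% ± 3.95 after the Rp, and the Rp mean was 1.31% without Rp replicate 2, which held 3 of the 5 boundary reads. After the FRp there were 0 boundary reads for 126 spliced reads summed over the libraries (adjusted p = 0.294 by edgeR). An approximate upper bound of that PIR, 3 counts over the pooled denominator of 252, was 1.19%. Such a bound covers counting error only and not the spread of libraries. An intron of FAR1 (chr4:8616930-8617025) had 0 boundary reads for 181 summed spliced reads after the Rp, with a bound of 0.829% by the same rule. Its PIR was 1.55% ± 1.71 after the FRp (adjusted p = 0.319 by edgeR). The smallest adjusted p was 0.660 in PHYE, 0.707 in PHYA and 0.724 in FHY3.

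Tandem splice sites of FHY3 and FAR1 were used in proportions that differed between the pulses by less than the spread of the libraries. They are shown because the competing sites lie 6 and 3 nt apart. Capitals mark the AG ends of the FHY3 acceptors and the GT starts of the FAR1 donors.
FHY3 acceptors, chr3:7822695-7822724, minus strand: cggctggttttctgtAGcgacAGttgaact
FAR1 donors, chr4:8617573-8617602, plus strand: ccatgtctgggatgGTgGTacattataaaa
The less used FHY3 acceptor took 21, 21 and 13 of 128, 123 and 132 reads after the Rp and 19, 18 and 16 of 111, 123 and 138 reads after the FRp, or 14.4% ± 3.99 and 14.5% ± 2.77. The less used FAR1 donor took 13.9% ± 4.03 after the Rp against 12.9% ± 3.24 after the FRp. The first intron of PHYA was spliced from 3 donors to 1 acceptor. Donors other than the most used one took 2 of 27, 6 of 15 and 38 of 142 reads after the Rp and 40 of 102, 42 of 86 and 32 of 80 reads after the FRp. The share ran from 7.41% to 40.0% after the Rp and from 39.2% to 48.8% after the FRp, so the libraries overlapped, and most of the Rp reads came from Rp replicate 3. These junctions were listed together in the table and were not tested.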

How the data were processed

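RNA of 6 libraries of Col-0 seeds, 3 per light pulse, was polyA-selected, and paired-end reads were sequenced on a HiSeq 1500. The authors aligned them to TAIR10 with TopHat2 2.1.1 and used SAMtools 1.3, per the submitters' processing notes, and deposited raw read counts per gene and raw counts of reads on junctions and exon–intron boundaries. The use of strand in counting is not given in the sources used here. The PSI and PIR columns of the authors are per condition and were not used. Lines of annotated IR events carry another name than their boundary reads, so events were identified by the latter.

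Gene counts were tested with edgeR 4.0.16 in R 4.3.3 (TMM, quasi-likelihood) for genes with a mean over 10 reads and over 0.05 reads per exonic nt in at least 1 condition. Junction counts were tested with the same tool, with 1 coefficient per library, where events had a mean of at least 10 reads per library in each condition and 5 in total on each side. RPKM was computed from the summed exon length of the count table. Sequences and coordinates were read from TAIR10.1, in which 98.9% of 71407 listed exclusion junctions have GT–AG ends. DESeq2 1.42.0, limma 3.58.1 and the other alternatives are given below. All 9 genes are named with every library. Of each other list, the called genes with up to 3 of the largest changes per direction are named, and of each gene the event of smallest p. The 9 genes and the other lists were chosen with earlier results of these data known. Scripts were tested on simulated data. Figures were drawn with matplotlib 3.10.9.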

Additional observations from a re-analysis of the deposited data

How the results depend on the processing

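PHYA, PHYB, PHYD, PHYE and FHL kept their calls under every alternative run: DESeq2, library totals, other filters, the edgeR exact test, a fold change over 2, the replicate block and each library left out. The count of the 9 called lower was 5 to 6 when 1 library was left out, since FHY1 was called without Rp replicate 2 or FRp replicate 3, and 0 were called higher. With library totals in place of TMM, 1 of the 9 (PHYC) was called higher, and the values of FHY3 (0.23) and FAR1 (0.10) turned positive. Of 117 values of the 9 genes under alternatives, 112 kept direction and side of the threshold. In the 5 other lists, 12 genes were called higher and 6 lower with library totals, and 2 and 6 at a fold change over 2, against 6 and 13. With 1 library left out they were 5 to 6 and 11 to 13. Of the 21 splicing events, limma called 1 and Fisher's exact test on pooled reads 4, the latter with no replicate error. The FHL upstream intron had an adjusted p of 0.119 by limma and 0.00174 by Fisher's test, and could not be tested at a minimum of 20 reads. Over all events the calls were 694, against 212 with the replicate block, 270 to 402 with 1 library left out, 441 by limma, 5061 by Fisher's test, 270 at an adjusted p under 0.05 and 284 for differences over 10 points. Equal library sizes (711) and the newer quasi-likelihood method of edgeR (915) were added after seeing the data. At a fold change over 2, 5757 genes were called, against 9413. Same-numbered replicates did not deviate together across genes (r = 0.07, -0.11 and -0.06) or events (mean r = 0.01), and 2 of 6 libraries had their own number as best partner. No pairing by number was seen in these values. They cannot show whether same-numbered samples were handled together, which the labels do not state. The replicate block gave 5 lower and 0 higher among the 9 genes, 13 and 6 in the other lists, 0 of the 21 events and 9357 genes over all, and changed the call of none of the 9 genes. Depth limits FHL, FHY1 and PHYB junctions, with few reads per library.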
